A study of Glycine max with 6 samples.

Results

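Among the 66184 probe sets measured in drought-stressed soybean leaves, 2 genes of chromosome 1 that resemble known pathogen-response genes of Arabidopsis are described here. Glyma01g02580 is similar to ELI3-2 (elicitor-activated gene 3-2) and Glyma01g36480 is similar to the basic chitinase gene PR3. They were chosen by identifier with their rise under drought in these same arrays already known, so their values are given as a description and without a test. Leaves of the cultivar Williams 82 were hybridised to the Affymetrix Soybean Gene 1.0 ST array, which measures the RNA of a gene through the brightness of a set of probes. The drought group held leaves of plants 11, 12 and 13, from which water was withheld for 5 days starting at first flowering (R1), until soil moisture reached 5%. The well-watered group held leaves of plants 1, 3 and 4, which were watered as usual. Every sample was the 3rd trifoliate leaf, counted from the shoot tip, of a plant at the R2 stage (full bloom), and 3 plants shared a pot. The labels number the plants but do not say which of them shared a pot, so an effect of the pot was not tested, and the spread behind each p-value may be no more than that among plants sharing a pot.

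ELI3 genes were first known as genes switched on by fungal elicitors and by pathogen attack, and encode oxidoreductases of the cinnamyl alcohol dehydrogenase family, which interconvert aromatic aldehydes and alcohols. Relatives in other plants have been described as mannitol dehydrogenases. Basic chitinases of the PR3 class are mostly vacuolar enzymes that cleave chitin, the main polymer of fungal cell walls, and in Arabidopsis the gene answers to ethylene and jasmonate.

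Values are log2 expression centred so that every probe set has a median of 0 across the arrays, and a value therefore tells how far a leaf lay above or below the middle of that gene and not how abundant the transcript was. For the same reason the labelled tissue could not be checked by the level of leaf genes, and levels were not compared between genes. Where the 2 groups do not overlap, this centring makes the values of their 2 closest leaves mirror images, so only differences between leaves carry meaning. In bulk leaf RNA, more cells using a gene and more RNA per cell cannot be told apart.

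The ELI3-2-like gene Glyma01g02580 stood at -2.28, -2.76 and -2.43 in well-watered plants 1, 3 and 4, and at 2.28, 4.82 and 2.62 in drought plants 11, 12 and 13. The groups did not overlap, the well-watered leaves lay close together, and drought plant 12 stood far above the other drought leaves. The group means were -2.49 ± 0.245 and 3.24 ± 1.38 (SD, n = 3), a difference of 5.73 ± 0.53 (SE) on the log2 scale, or 53.0-fold. This difference ranked 8th of the 66184 probe sets and was the largest of the 3138 array genes of chromosome 1. Even the closest leaves of the 2 groups were 23.5-fold apart. Without drought plant 12 the difference was 4.94 ± 0.23, or 30.7-fold, and without drought plant 11 it was 6.21, or 74.0-fold.

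The basic chitinase-like gene Glyma01g36480 stood at -1.95, -1.02 and -1.23 in well-watered plants 1, 3 and 4, and at 1.02, 1.60 and 1.69 in drought plants 11, 12 and 13. The groups did not overlap here either, with well-watered plant 1 the lowest leaf and drought plant 11 the lowest of its group. The means were -1.40 ± 0.487 and 1.44 ± 0.364 (SD, n = 3), a difference of 2.84 ± 0.27 (SE), or 7.15-fold. This placed the gene at rank 297 of the 66184 differences and at rank 11 among the array genes of chromosome 1. The closest leaves of the 2 groups were 4.11-fold apart. Groups that did not overlap were common on these arrays, at 36.0% of all probe sets in either direction and 18.6% with drought above, so the absence of overlap by itself did not set either gene apart.

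**Figure D1:**
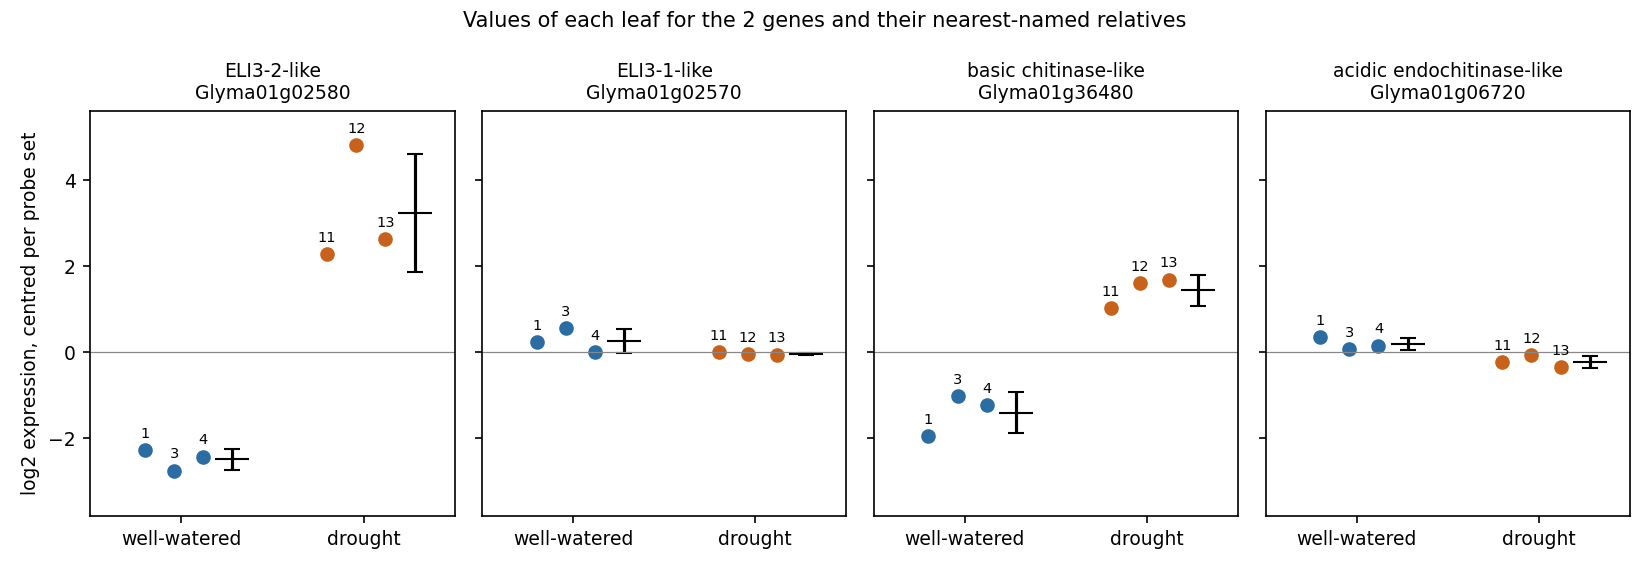
Log2 expression of each leaf, centred per probe set, for the 2 described genes and the chromosome 1 genes similar to ELI3-1 and to an acidic endochitinase. Points are leaves with the plant number above them, and bars beside them are the mean ± SD (n = 3). The described genes separate the groups, with the ELI3-2-like gene at 4.82 in drought plant 12, while the differences of their relatives were -0.30 and -0.41.

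The rise of the ELI3-2-like gene was uneven among the drought plants. Set against the well-watered mean, the ELI3-2-like gene was 27.2-fold higher in plant 11, 158-fold higher in plant 12 and 34.6-fold higher in plant 13, whereas the chitinase-like gene was 5.35-fold, 8.02-fold and 8.52-fold higher in the same plants. Plant 12 thus carried much more of the ELI3-2-like transcript than the other drought plants, by 5.17-fold over their mean, but was not the highest leaf for the chitinase-like gene. On the array of plant 12 the ELI3-2-like gene had the highest centred value of all 66184 probe sets, and it ranked 40th and 45th on the arrays of plants 11 and 13. Among the well-watered leaves its SD of 0.245 was larger than that of 48.7% of probe sets, and among the drought leaves its SD of 1.38 was larger than that of 99.98%.

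A gene was called higher or lower where the limma fit gave an adjusted p under 0.05, by the Benjamini-Hochberg method across the whole array, and a change of at least 2-fold. By this rule 3295 probe sets (4.98%) were higher and 3065 (4.63%) lower, together 9.61%. These calls included 81 rises of at least 16-fold, whose median SD among drought leaves was 0.290. The ELI3-2-like gene had the largest SD of these 81, and the next was 1.08. It was also the only one of the 3295 called rises in which plant 12 exceeded both other drought plants by more than 4-fold. Plant 12 was the highest drought leaf in 35 of the 81, plant 13 in 38 and plant 11 in 8. In all called rises plant 12 was the highest in 31.1%. These counts do not measure the size of an excess. The low standing of plant 11, seen in both described genes, was common. It was the lowest drought leaf in 50 of the 81 and in 51.8% of all called rises. For the chitinase-like gene the drought SD of 0.364 was larger than that of 56.8% of the 384 called rises within 0.5 log2 of its own difference, whose median was 0.314. Whether the value of plant 12 came from the plant, its leaf or its array was not tested.

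**Figure D2:**
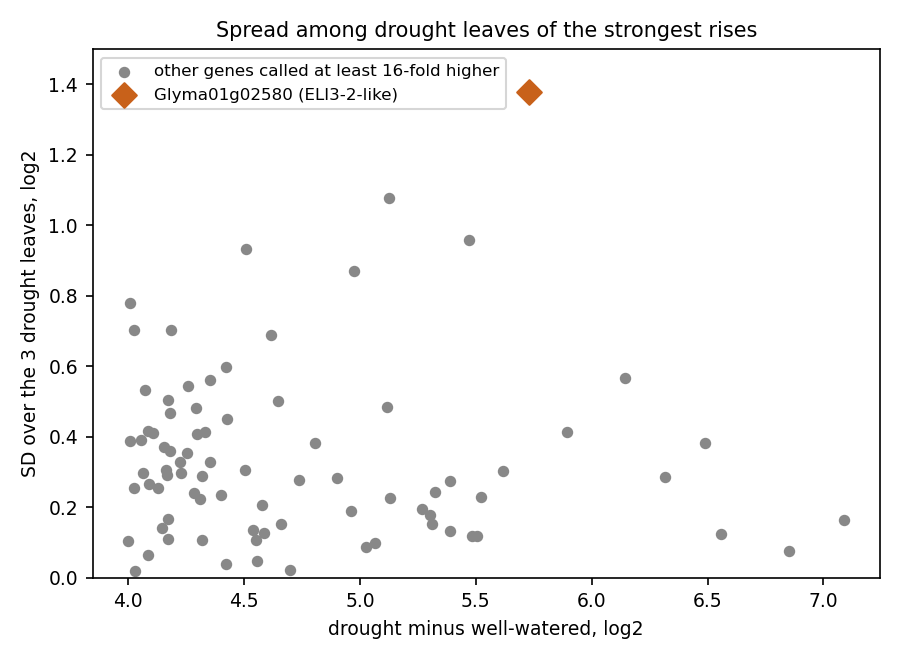
SD of the 3 drought leaves against the log2 difference for the 81 genes called at least 16-fold higher. The ELI3-2-like gene (diamond) has the largest SD, 1.38, against a median of 0.290.

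The relatives of the ELI3-2-like gene among the described chromosome 1 genes were not called. Glyma01g02570, similar to ELI3-1 and next to it in identifier order, stood at 0.23, 0.56 and 0.00 in well-watered plants 1, 3 and 4, and at -0.00, -0.05 and -0.05 in drought plants 11, 12 and 13. The drought leaves lay within a narrow band just under the well-watered leaves, without overlap, as in 17.4% of all probe sets. Plant 12 did not stand out. The difference was -0.30 ± 0.18 (SE), with an adjusted p = 0.315 (limma). The alcohol dehydrogenase-like genes Glyma01g28850 and Glyma01g28880, of a wider family of alcohol-oxidising enzymes, differed by -0.38 ± 0.17 and 0.11 ± 0.22, with adjusted p = 0.164 and 0.805 (limma). None of these 3 relatives was called by limma or by the methods' t-test, and none passed an unadjusted p of 0.05.

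The other chitinase among the described chromosome 1 genes, and the genes similar to chitin receptors, were not called either. Glyma01g06720, similar to an acidic endochitinase, which is of a separate chitinase class, stood at 0.34, 0.07 and 0.15 in well-watered leaves and at -0.23, -0.07 and -0.35 in drought leaves. All drought leaves lay below all well-watered leaves by a small margin, as in 17.4% of all probe sets. The difference of -0.41 ± 0.17 had an adjusted p = 0.126 (limma), though it passed an unadjusted p of 0.05, as 15.0% of all probe sets did in that direction. Of the genes for sensing chitin, Glyma01g38560, similar to the Arabidopsis chitin receptor kinase CERK1, differed by -0.26 ± 0.24 (adjusted p = 0.555, limma). The LysM receptor-like kinase genes Glyma01g38550 and Glyma01g03320, of the family that binds chitin-type sugars, differed by 0.90 ± 0.21 and -0.10 ± 0.25 (adjusted p = 0.0118 and 0.853, limma). Glyma01g38550 was higher in every drought leaf, as 18.6% of all probe sets were. Its difference stayed below 2-fold, except without drought plant 12, when it was 1.06.

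Other defence genes of chromosome 1 were gathered into 11 lists by the Arabidopsis gene they resemble. Of their 94 genes other than the 2 described, 8 (8.51%) were called higher and 7 (7.45%) lower, beside 4.98% and 4.63% of all probe sets, and 79 were not called. Without the criterion of 2-fold, 18 were higher and 11 lower, beside 9.96% and 9.95% of all probe sets. The median difference was 0.12, beside 0.02 over all probe sets. The largest rise among them was 2.27, below both described genes, which had been chosen with their rise known. In the same lists plant 12 was not the high drought leaf, with a median deviation from the drought mean of -0.09, beside -0.05 for plant 11 and 0.12 for plant 13. Over all probe sets these medians were -0.02 for plant 11, -0.01 for plant 12 and 0.03 for plant 13, so plant 13 was highest there too.

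**Figure D3:**
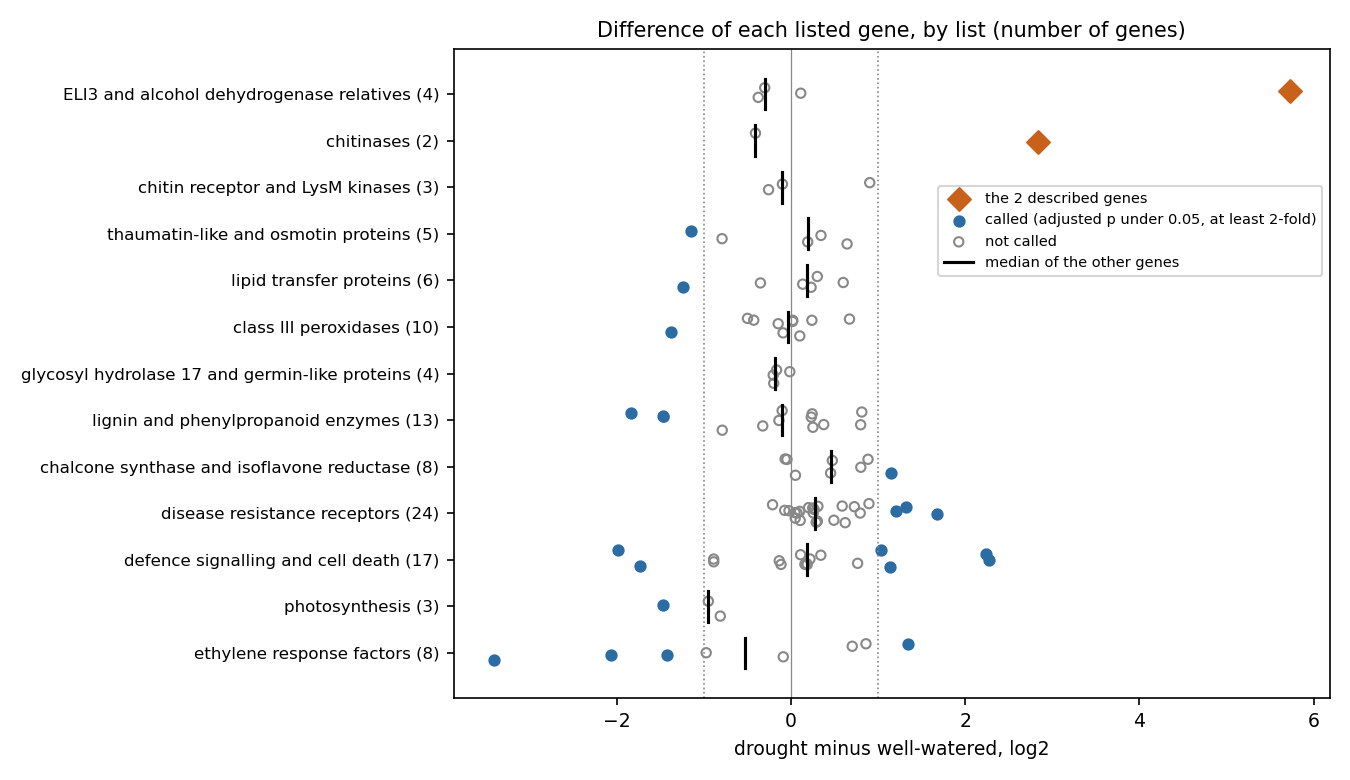
Log2 difference, drought minus well-watered, of every listed gene, with the number of genes of each list in brackets. Diamonds are the described genes, filled circles called genes, open circles genes not called, black bars the median of the other genes of a list, and dotted lines mark 2-fold. The described genes, chosen with their rise known, lie at 5.73 and 2.84, to the right of all others.

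Families of antimicrobial and wall-hardening proteins held no called rise in limma or by the methods' t-test, but 1 thaumatin-like and 1 peroxidase gene were higher by less than 2-fold, Glyma01g37020 by 0.64 ± 0.19 and Glyma01g32270 by 0.67 ± 0.18 (adjusted p = 0.0412 and 0.0259, limma), as 9.96% of all probe sets were without the criterion of 2-fold. The same 2 genes, named here after their values were seen, were the rises of these families at an unadjusted p under 0.05, beside 15.7% of all probe sets. Over all probe sets limma called 4.98% higher and 4.63% lower, and the methods' test called 3.50% higher. At these shares, families of so few genes may hold no called rise, so its absence does not set them apart. Of 5 thaumatin-like and osmotin genes, which belong to the PR5 class, 1 fell, the osmotin OSM34-like Glyma01g42670, by 1.15 ± 0.25 (adjusted p = 0.00970, limma), and it was -0.83 without well-watered plant 1 and -0.88 with array weights, neither of them called, and was not called by the methods' t-test. Of 6 lipid transfer protein genes 1 fell, Glyma01g17820, by 1.24 ± 0.18. Of 10 class III peroxidase genes 1 fell, Glyma01g36780, by 1.38 ± 0.21, and its Arabidopsis relative PER64 is known for lignin polymerisation in the root Casparian strip. None of the 4 genes for glycosyl hydrolase 17 and germin-like proteins was called, with differences between -0.20 and -0.01 and none at an unadjusted p under 0.05 in limma.

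Of 13 genes listed for lignin and phenylpropanoid synthesis, the pathway to which cinnamyl alcohol dehydrogenases belong, 2 (15.4%) were called lower and 0 higher. The 13 include dirigent-related genes beside those for enzymes. Over all probe sets 4.63% were called lower and 4.98% higher. The median of the 13 was -0.10. Without the criterion of 2-fold 1 was higher and 3 were lower, and at an unadjusted p under 0.05 in limma 3 were higher and 4 lower, beside 15.7% and 15.0% of all probe sets. The methods' t-test called 0 higher, beside 3.50% of all probe sets. The laccase LAC4-like gene Glyma01g27710, whose Arabidopsis relative polymerises lignin, fell by 1.84 ± 0.20 (adjusted p = 0.000189, limma). Glyma01g01350, of the 4-coumarate-CoA ligase family, fell by 1.47 ± 0.18 (adjusted p = 0.000366, limma). In the flavonoid branch, 1 of 8 genes (12.5%) for chalcone synthase and isoflavone reductase rose, beside 4.98% of all probe sets. This was the chalcone synthase-like Glyma01g43880, by 1.14 ± 0.20. It was 0.99 without drought plant 13 and 0.93 with array weights, neither of them called. The median of these 8 was 0.46.

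Called rises were found among receptor and signalling genes, and called falls among the signalling genes as well. Of 24 disease resistance receptor genes, which encode intracellular sensors of pathogen effectors, 3 (12.5%) rose and none fell. Over all probe sets 4.98% were called higher and 4.63% lower. Of the 24 differences, 21 (87.5%) were above 0, beside 52.6% of all probe sets, with a median of 0.28. Well-watered plant 1, whose array had the lowest median (-0.107), was the lowest well-watered leaf in most of the 24. The count above 0 thus leans partly on that leaf, and it was not taken without it. The rises were 1.68 ± 0.19 in Glyma01g03920, 1.32 ± 0.20 in Glyma01g39010 and 1.20 ± 0.19 in Glyma01g04240. These receptors form large families with near-identical copies, so probes may not separate their members. Of 17 genes for defence signalling and cell death, 4 (23.5%) rose and 2 (11.8%) fell, beside the same shares of all probe sets. Without the criterion of 2-fold 5 of the 17 were higher and 4 lower, beside 9.96% and 9.95% of all probe sets. The BAP2-like gene Glyma01g41070, whose Arabidopsis relative restrains cell death, rose by 2.27 ± 0.30 and the WRKY4-like transcription factor gene Glyma01g06550 by 2.24 ± 0.16 (adjusted p = 0.000543 and 1.2e-05, limma). Glyma01g43130, similar to WRKY27, rose by 1.14 ± 0.18, but was 1.00 and just short of a call with array weights. The LOL1-like gene Glyma01g40720, whose Arabidopsis relative promotes cell death, fell by 1.99 ± 0.20, and Glyma01g12740, similar to the jasmonate transcription factor MYC2, fell by 1.74 ± 0.17 (adjusted p = 9.7e-05 and 9.8e-05, limma).

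Ethylene response factors are transcription factors known in Arabidopsis to act upstream of basic chitinase. The 8 genes of this kind had been picked by the study for a change in leaves of younger plants, so they are no random sample of the family. Of these, 1 (12.5%) was called higher and 3 (37.5%) lower, beside 4.98% and 4.63% of all probe sets, with a median of -0.53. The ERF1-like genes went opposite ways, since Glyma10g00980 rose by 1.34 ± 0.35 and Glyma10g04210 fell by 3.41 ± 0.30 (adjusted p = 0.0233 and 4.6e-05, limma). The rise of Glyma10g00980 was not called without well-watered plant 3, well-watered plant 4 or drought plant 13, nor by the methods' t-test. Glyma10g23460, similar to tobacco ERF5, fell by 2.07 ± 0.20 and Glyma13g30990, similar to ERF9, fell by 1.42 ± 0.31, although the latter was not called by the methods' t-test.

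Photosynthesis genes, given as a gauge of the state of the leaf, were lower in every drought leaf than in any well-watered leaf. The same held for 17.4% of all probe sets. The phosphoribulokinase-like gene Glyma01g01370, an enzyme of carbon fixation, fell by 1.47 ± 0.17 (adjusted p = 0.000209, limma). Glyma01g28810, similar to the light-harvesting protein gene LHCB4.2, and Glyma01g38750, similar to PSBO2 of the oxygen-evolving complex, differed by -0.81 ± 0.17 and -0.95 ± 0.16 (adjusted p = 0.00647 and 0.00254, limma), under the 2-fold criterion, though Glyma01g38750 was -1.01 and called without drought plant 12. Their part in the rise of the 2 described genes was not tested.

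Among the neighbours of the 2 described genes no rise was called. Of the 5 genes on each side of each, in identifier order, 0 of 20 were called higher by limma, beside 4.98% of all probe sets. At that share so few genes may hold no called rise, so its absence does not set the neighbours apart. Differences were above 0 in 2 of 10 neighbours of the ELI3-2-like gene and in 7 of 10 of the chitinase-like gene. Over all probe sets 52.6% were above 0. Called lower were 2, or 10% beside 4.63% of all probe sets. None was higher at an unadjusted p under 0.05 (15.7% of all probe sets) or by the methods' t-test (3.50%). Near the ELI3-2-like gene, the Dof zinc finger-like Glyma01g02610, a transcription factor gene, fell by 1.18 ± 0.26 (adjusted p = 0.0103, limma), and was -0.99 without well-watered plant 1 and -0.70 with array weights, neither of them called. Near the chitinase-like gene, Glyma01g36460, similar to serine acetyltransferase SERAT3;2 of cysteine synthesis, fell by 1.07 ± 0.22 (adjusted p = 0.00677, limma), and was not called without well-watered plant 3 or drought plant 11. The methods' t-test called neither of these falls. The other 18 neighbours differed by -0.89 to 0.19.

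**Figure D4:**
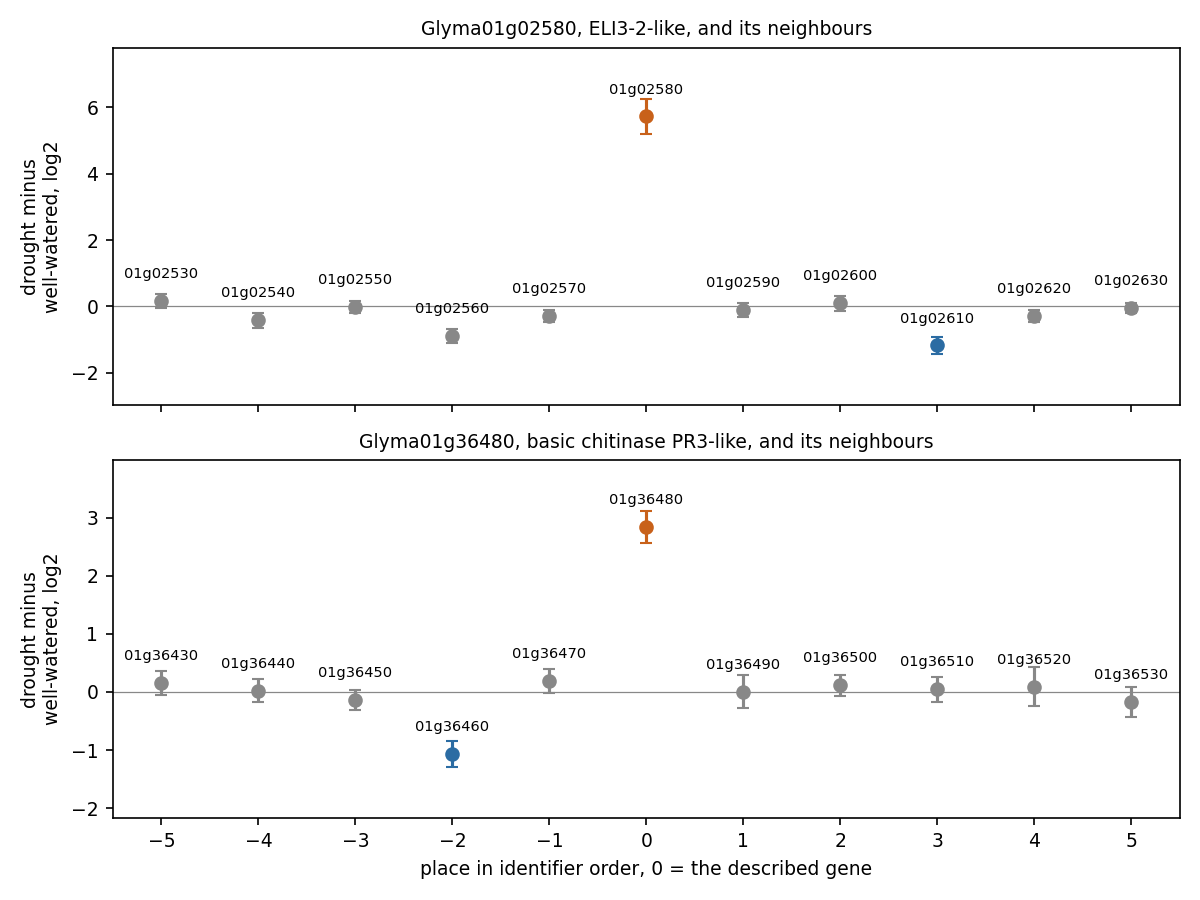
Log2 difference, drought minus well-watered, with its SE, of each described gene (place 0) and the 5 array genes on each side in identifier order, named by the last part of the identifier. The described genes lie at 5.73 and 2.84, no neighbour lies above 0.19, and the called neighbours fell by 1.18 and 1.07.

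To find genes of like pattern, the root mean square difference of the centred log2 values over the 6 leaves was taken. By this measure the 2 described genes were 1.70 apart. For the ELI3-2-like gene the nearest probe sets of the whole array were Glyma11g09120 at 0.80 and Glyma07g16830 at 0.81. Glyma07g16830 was also highest in plant 12, with 1.77, 3.50 and 2.83 in drought plants 11, 12 and 13, whereas Glyma11g09120 had 2.60, 2.98 and 3.01. No probe set reached the value of the ELI3-2-like gene in plant 12. The 1729 genes with a description were those of chromosome 1 and of the study's hormone lists, so hormone genes are over-represented among them. The nearest of them were the HVA22D-like Glyma06g17610 at 0.97, of a family induced by abscisic acid, and the NCED3-like Glyma15g40070 and NCED5-like Glyma08g18800 at 1.02 and 1.11, which encode the key enzyme of abscisic acid synthesis. The NCED5-like gene differed by 4.42 between the groups, with 2.17, 2.22 and 2.14 in the drought plants, so that its drought leaves were nearly equal. Ordered by Pearson correlation over the 6 leaves instead, the HVA22D-like, NCED3-like and NCED5-like genes ranked 944, 1515 and 1129 on the array, and 0 of the 100 nearest genes were shared.

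The chitinase-like gene had closer companions, but also more genes with a change of like size. Called rises within 0.5 log2 of its difference numbered 384, beside 14 for the ELI3-2-like gene, each count including the gene itself. Glyma05g32360 and Glyma08g05360 lay at 0.112 and 0.114 from it, with differences of 2.82 and 2.89 between the groups beside its own 2.84. Both had their lowest well-watered value in plant 1 and their lowest drought value in plant 11, as it did, which a choice by likeness favours. Among described genes the nearest were Glyma01g24360, similar to a haloacid dehalogenase-like hydrolase, at 0.20, Glyma01g36150, similar to the tonoplast sugar transporter TMT2, which loads sugars into the vacuole, at 0.27, and Glyma01g41560, similar to a RING finger protein gene, at 0.29. These likenesses rest on 6 leaves in 2 groups and mainly match the size of the drought difference.

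**Figure D5:**
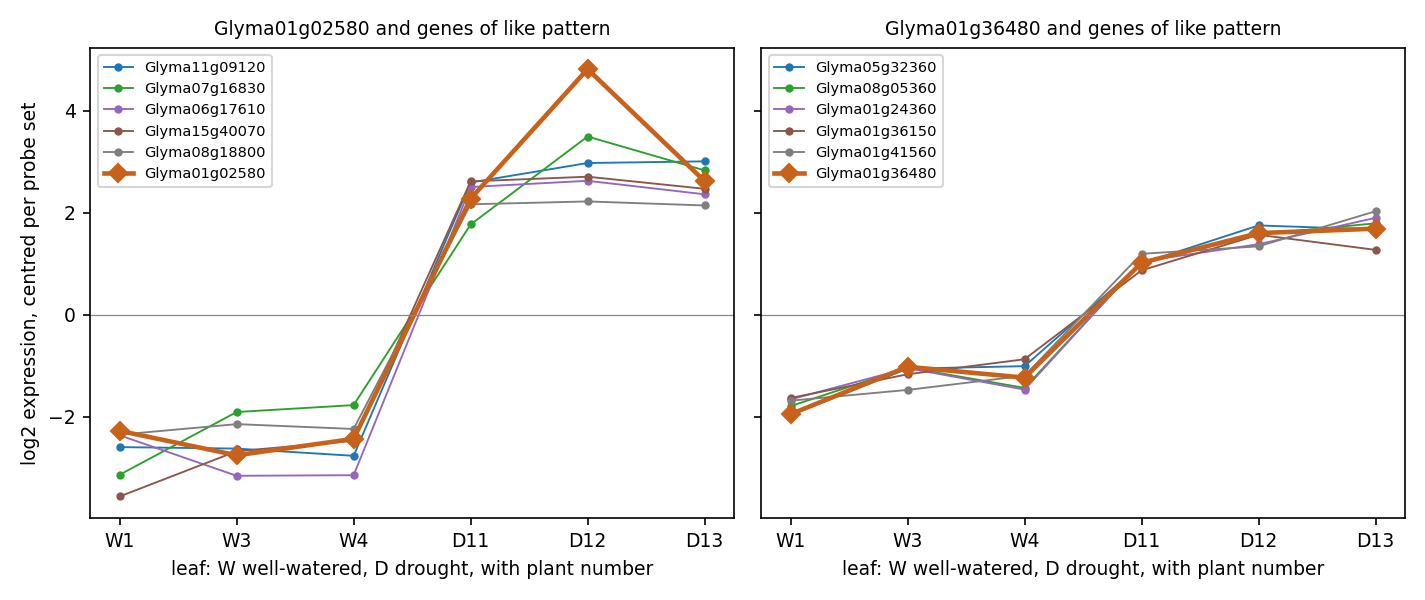
Centred log2 expression of the described genes and of the genes of like pattern in each leaf, with lines that only join the points of a gene. The ELI3-2-like gene (left) leaves its companions in drought plant 12, at 4.82. The chitinase-like gene (right) runs with its companions, which were chosen for likeness, in all 6 leaves.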

How the data were processed

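RNA of 6 leaves was hybridised by the authors, 1 array a leaf. The authors summarised probes with RMA in Affymetrix Expression Console (also named in the submitters' notes, without versions) and aligned the arrays at a common percentile in GeneSpring. The deposited log2 values are also centred gene by gene, each probe set having a median of 0 across the arrays, which removes absolute levels and signal over background. Array medians ran from -0.107 to 0.132. The authors' table of fold changes and p-values was used only to pair probe sets with gene identifiers.

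Drought was set against well-watered with limma 3.58.1 (lmFit and eBayes in R 4.3.3, treatment the sole term), tested on simulated data, with Benjamini-Hochberg adjustment over 66184 probe sets. Tables were made in Python 3.11.15. SEs are those of the moderated fit. The genes described and the 13 gene lists were chosen with earlier results of these data known. Named were all genes of the lists closest to the 2 described genes and of the photosynthesis list, the 3 called genes of each other list with the largest rise and the 3 with the largest fall, called neighbours, and for each described gene the 2 nearest probe sets and the 3 nearest described genes. Descriptions were at hand for 1605 array genes of chromosome 1 and for the study's hormone lists, so the lists are partial. Of the array's identifiers 0 matched the 59048 RefSeq genes of Glycine_max_v4.0, and no sequence is shown. Alternatives were array medians subtracted, quantile normalization, array weights, each array left out, the methods' t-test and no fold criterion. The array weights were 0.48, 0.34 and 3.96 for well-watered plants 1, 3 and 4. With array weights the well-watered side thus rests mostly on plant 4. Only 3 arrays a group limit the precision.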

Additional observations from a re-analysis of the deposited data

How the results depend on the processing

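The differences of the 2 described genes kept their direction under every alternative run. Their groups did not overlap, so leaving out or weighting arrays could not have reversed it, and only the sizes are informative there. That of the ELI3-2-like gene ranged from 4.94 to 6.21 with 1 array left out and was 5.18 after quantile normalization, and that of the chitinase-like gene ranged from 2.56 to 3.05 and was 2.64. The SD of the ELI3-2-like gene among drought leaves, 1.38 in the main analysis, ranged from 0.245 to 1.80 with 1 array left out. It was 0.245 without drought plant 12 and 0.928 after quantile normalization. That of the chitinase-like gene ranged from 0.0617 to 0.474, the lowest without drought plant 11, and was 0.213 after quantile normalization. Without a fold criterion 18 of the 94 other defence genes were higher and 11 lower. Of the 20 neighbours, 1 was called lower with array weights, 0 with the methods' t-test, and 1 to 3 with 1 array left out. When likeness was ordered by Pearson correlation, 0 of the 100 nearest genes were shared for the ELI3-2-like gene and 20 for the chitinase-like gene. With 1 array left out, 80 to 98 were shared for the ELI3-2-like gene, the lowest without drought plant 12. For the chitinase-like gene 59 to 88 were shared, the lowest without well-watered plant 1. For 30 of the other genes named, those with a test from the lists and the neighbours, 308 of 330 values kept the call or its absence, 17 lost the call and 5 gained it. No called value changed sign, and 5 of the 308, in 3 genes never called, did. Leaving out arrays for the spread and the likeness, and leaving out probe sets with identical values, were chosen after seeing the data. No paired analysis was possible because no plant number occurs in both groups. Signal over background is not known from centred values, so faint genes could not be told from bright ones.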
